A study of Mus musculus with 18 samples.

Results

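The cells described here are barcodes of mouse urinary bladder selected on 6 transcripts of vascular mural cells: Rgs5, Kcnj8, Abcc9, Notch3, Higd1b and Ndufa4l2. A barcode was a member when it held at least 500 UMIs (unique molecular identifiers, one per captured RNA molecule), at least 4 UMIs and at least 0.1% of its UMIs from these 6 genes, under 0.3% from the visceral muscle genes Actg2 and Des, and at most 1 UMI of the endothelial genes Pecam1 and Cdh5. The rule found 669 members among 38761 barcodes of 8 droplet libraries, or 1.73%. Of 775 barcodes that met the mural criterion, 44 were left out by the muscle criterion and 62 by the endothelial one.

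Every library came from C57BL/6 mice with no stated allele or treatment. Animals of each droplet library were pooled before capture. Whole-bladder cells came from 3 males of 22 months, from 3 males of 3 months, from 2 females and 2 males of 12 months in each of 2 libraries, and from 2 females and 2 males of 24 months. Nuclei came from 2 females and 2 males of 12 months, cells of the detrusor layer alone from 3 females of 14 months, and cells of a detrusor-enriched preparation from 2 females and 2 males of 14 months. Frozen spatial sections (2 of 22 months and 2 of 14 months) were each labelled with several males. These sections and bulk RNA of 12-month females (3 libraries of intact bladder, 3 of dissociated bladder) supplied levels of the same genes outside the selected cells.

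Mural cells wrap the endothelial tube of small vessels. Pericytes sit on capillaries within the basement membrane, and vascular smooth muscle cells encircle arterioles and venules and set their diameter. Endothelial PDGF-B acting on PDGFRB recruits mural cells, NOTCH3 maintains them, and KCNJ8 with ABCC9 forms the vascular ATP-sensitive potassium channel through which metabolic signals relax the vessel wall. RGS5 dampens G-protein signalling, NDUFA4L2 is a mitochondrial protein raised by hypoxia signalling, and HIGD1B is a protein with a hypoxia-inducible domain known as a pericyte marker.

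Members were unevenly distributed among the libraries. The detrusor-only library held 294 members (4.59% of 6400 barcodes, 95% Clopper-Pearson interval 4.09 to 5.14) and the detrusor-enriched library 155 (2.52% of 6163, 2.14 to 2.94). The 22-month male whole bladder held 151 (1.66% of 9080, 1.41 to 1.95) and the 3-month male whole bladder 41 (0.643% of 6378, 0.462 to 0.871). The 2 whole-bladder libraries of 12 months held 7 and 4, the 24-month library 11 and the nuclei 6. Both detrusor preparations therefore had higher shares than any whole-bladder library, but each preparation is a single library, the intervals cover counting error only, and the preparation itself sets which cells are captured. Members had median depths of 1951 and 1165 UMIs in the 22-month and 3-month male libraries, 6709 and 6930 in the detrusor-only and detrusor-enriched libraries, and 1590 in nuclei. When each cell was thinned to 1000 UMIs the shares were 2.22% and 1.74% in the detrusor-only and detrusor-enriched libraries and 0.598% and 0.187% in the 22-month and 3-month male libraries. No member barcode was shared between any of the 28 pairs of libraries.

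**Figure D1:**
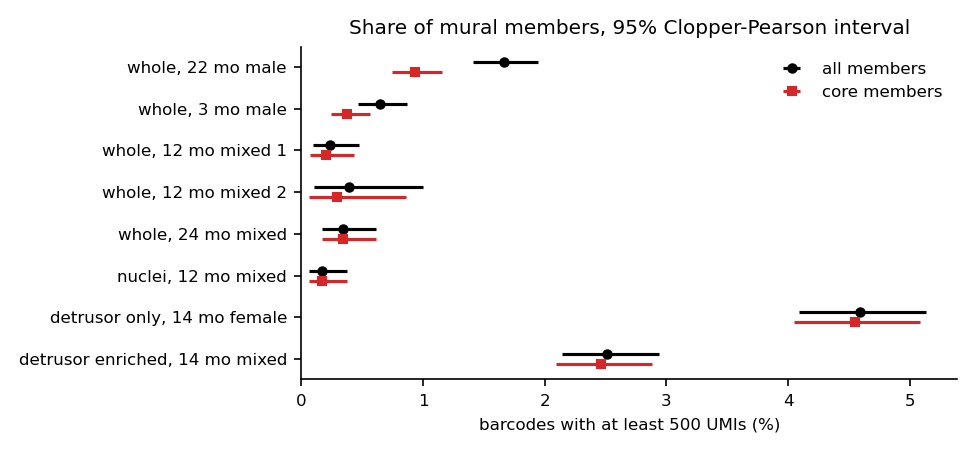
Share of barcodes with at least 500 UMIs that were members (black) or core members (red, at least 2 UMIs over the 5 rule genes other than Ndufa4l2) in each library, with 95% Clopper-Pearson intervals. The detrusor-only library stands highest at 4.59%, and the red and black points separate in the male whole-bladder libraries.

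The label was checked against genes of other cell types, and in 4 libraries selected cells went against it. The 6 nuclei members carried 15281 CPM of 10 urothelial genes (a gene's summed UMIs per 1000000 non-mitochondrial UMIs), against 4423 CPM in the other nuclei, and 8 of the 10 genes were higher in them. Of 20 mural markers that the rule did not use, 11 were at 0 in these nuclei, their summed level was only 1.70 times that of the other nuclei, and contractile genes were 0.184 times. The nuclei members are therefore called by their rule. In members of the 22-month, 3-month, detrusor-only and detrusor-enriched libraries urothelial genes summed to 887, 4707, 2.57 and 1040 CPM, against 5310, 9441, 96.3 and 3600 CPM in the other cells. One of the 4 members of the second 12-month whole-bladder library had 3.58% of its UMIs from 10 fibroblast genes, and with it the members summed to 10549 CPM of these genes against 1851 CPM in the other cells. In the 22-month male library 66 of 151 members, and in the 3-month male library 17 of 41, had fewer than 2 UMIs over the 5 rule genes other than Ndufa4l2, and 56 and 14 of them had none. Those cells were selected almost wholly on Ndufa4l2. Their median share of UMIs from the fibroblast genes was 5.31% at 22 months and 3.95% at 3 months, beside 5.75% and 3.89% in fibroblast-rule cells (cells selected on Dcn, Lum, Col1a1, Col3a1 and Pdgfra). The other members of the same libraries had 0.443% and 0.178%. In the detrusor-only and detrusor-enriched libraries 3 and 3 members fell below the same level. The 578 members with at least 2 such UMIs are called core members below, a distinction made after these values were seen, and the remaining 91 are called by their rule. With core members alone the shares became 4.55%, 2.47%, 0.936% and 0.376% in the detrusor-only, detrusor-enriched, 22-month and 3-month male libraries.

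**Figure D2:**
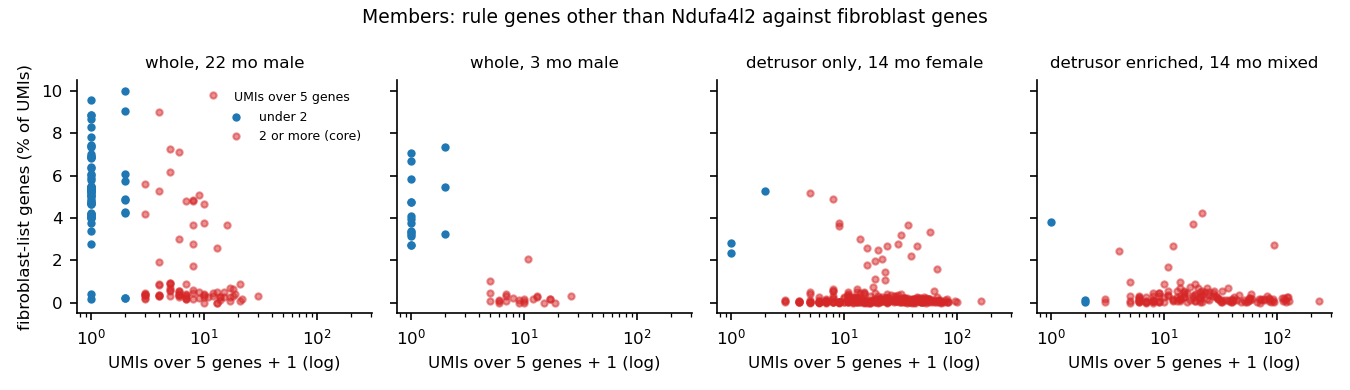
Each point is a member, by its UMIs over Rgs5, Kcnj8, Abcc9, Notch3 and Higd1b (log axis, 1 added) and the percent of its UMIs from fibroblast-list genes. Blue points (under 2 UMIs) lie mostly above 2% in both male libraries, and 66 and 17 of them are present there against 3 and 3 in the detrusor libraries.

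Core members also differed in purity. Urothelial genes summed to 1323, 8048, 2.59 and 1041 CPM in core members of the 22-month, 3-month, detrusor-only and detrusor-enriched libraries, so at 3 months the core members carried more than all members did. At 22 months 19 of 85 core members still had at least 2% fibroblast-list UMIs, against 1 of 24 at 3 months, 15 of 291 in the detrusor-only library and 5 of 152 in the detrusor-enriched one. Blood endothelial list genes summed to 283 to 372 CPM in the members of these 4 libraries, against 6894 to 10422 CPM in endothelial-rule cells. In the other cells they summed to 197 and 200 CPM at 22 and 3 months and to 686 and 486 CPM in the detrusor-only and detrusor-enriched libraries. Core members carried 743, 439, 297 and 302 CPM in the same order, above the other cells in both male libraries and below them in both detrusor libraries. Of the 8 list genes only Esam was higher in core members in all 4 libraries. Pecam1, Kdr and Egfl7 were lower in all 4, and the other 4 genes were mixed. Pecam1 stood at 0 to 7.66 CPM, as the rule fixes. Macrophage and monocyte genes summed to 50.8 to 272 CPM, beside 1211 to 4080 CPM in the other cells. One member at 22 months carried 2081 haemoglobin UMIs. Scrublet scores marked as doublets 15, 2, 19 and 7 members of the 22-month, 3-month, detrusor-only and detrusor-enriched libraries and none elsewhere; 626 members remained without them.

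The rule genes are given as levels with no test, since they chose the cells. Rgs5 stood at 1127, 1952, 2367 and 3181 CPM in members of the 22-month, 3-month, detrusor-only and detrusor-enriched libraries, and at 6.82, 9.23, 14.9 and 49.2 CPM in the other cells. In core members Rgs5 was 2489, 3629, 2384 and 3210 CPM, with no split between the male and detrusor libraries. Kcnj8, the channel pore, stood at 387, 992, 538 and 410 CPM in members in the same order. In core members it was 841, 1785, 542 and 414 CPM, higher in both male libraries than in both detrusor ones. Abcc9, the channel's regulatory subunit, was low in both male libraries, at 41.0 and 110 CPM, and higher in the detrusor libraries, at 335 and 325 CPM. Notch3 followed the same split, with 129 and 142 CPM in the male libraries and 600 and 719 CPM in the detrusor libraries. Ndufa4l2 ran the other way, at 1555 and 2047 CPM against 872 and 593 CPM. In core members alone Notch3 was 280, 263, 604 and 725 CPM and Abcc9 78.2, 205, 337 and 328 CPM. Fibroblast-rule cells of the detrusor libraries were also higher in Abcc9, at 58.0 and 18.4 CPM against 5.24 and 2.52 CPM in the male ones, so the split in this gene was not limited to members. In members of the 12-month libraries and of nuclei no Kcnj8 UMI was counted, with upper exact Poisson bounds of 107, 197 and 283 CPM.

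Of the cells near the edge of the rule, 50 members at 22 months had exactly 4 mural UMIs and 9 of these had an Rgs5 UMI, while 103 barcodes had 3 mural UMIs and 4 of them an Rgs5 UMI. In the detrusor-only library 2 members had exactly 4 UMIs and 3 barcodes had 3.

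Outside the rule, the 24 genes with the largest median ratio to the other cells of the same library were named over the 4 libraries with at least 20 members. Over all 26346 shared genes, 1398 (5.31%) were higher in members than in other cells in each of the 4 libraries, and 1297 (4.92%) in core members. Lower in each of the 4 were 4070 (15.4%) in members and 4706 (17.9%) in core members, counting genes with no UMI. These counts and the genes below are descriptions with no test, because values of the same cells chose the members. Cox4i2, a subunit of cytochrome oxidase known from lung and from pericytes, stood at 741, 882, 430 and 336 CPM in members of the 22-month, 3-month, detrusor-only and detrusor-enriched libraries and at 1.66 to 5.11 CPM in the other cells, a median log2 ratio of 5.93 with 5 CPM added. It was also higher in members than in other cells in all 8 libraries. Vtn, which encodes the matrix protein vitronectin made by pericytes, had 158, 299, 233 and 172 CPM in members, against 1.06 to 2.02 CPM elsewhere. The G-protein regulator Rgs4 had 182, 346, 382 and 276 CPM. Rasl11a and Rasd1, small GTPases of the Ras family, had median log2 ratios of 4.40 and 4.29.

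Several of the 24 genes act in vessel tone. Gucy1b1, the haem-binding subunit of the nitric oxide receptor, stood at 187, 142, 401 and 332 CPM. Atp1b2, a sodium pump subunit, stood at 211, 205, 174 and 156 CPM. Gja4, the gap-junction protein connexin 37, had 223, 110, 270 and 217 CPM in members, but endothelial-rule cells carried 242, 70.6, 90.7 and 59.5 CPM of it, so both kinds of cell carried it and endothelial-rule cells had slightly more at 22 months. Rgs16 had 132, 142, 625 and 534 CPM in members and 189, 148, 379 and 413 CPM in endothelial-rule cells. Endothelial-rule cells thus had more of it than members in both male libraries. Gper1, a membrane receptor reported to bind estrogen, had 43.9, 63.0, 79.1 and 54.6 CPM. The secreted and membrane genes Il34, a macrophage growth cytokine, and Colec11, a collectin of the complement system, had median log2 ratios of 3.74 and 3.94. The integrin subunit Itga7 and the forkhead factor Foxs1 had 3.48 and 3.39. Smooth-muscle-rule cells, defined below, carried some of these genes too. In the detrusor-only and detrusor-enriched libraries they had 41.11 and 86.02 CPM of Itga7, against 108 and 123 CPM in members. Filip1l stood at 451 and 772 CPM in them, against 1322 and 1138 CPM in members. Vtn was at 0 CPM in smooth-muscle-rule cells of both libraries. All 24 genes remained above 1 in their smallest log2 ratio over the 4 libraries, where Filip1l was lowest at 1.97.

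**Figure D3:**
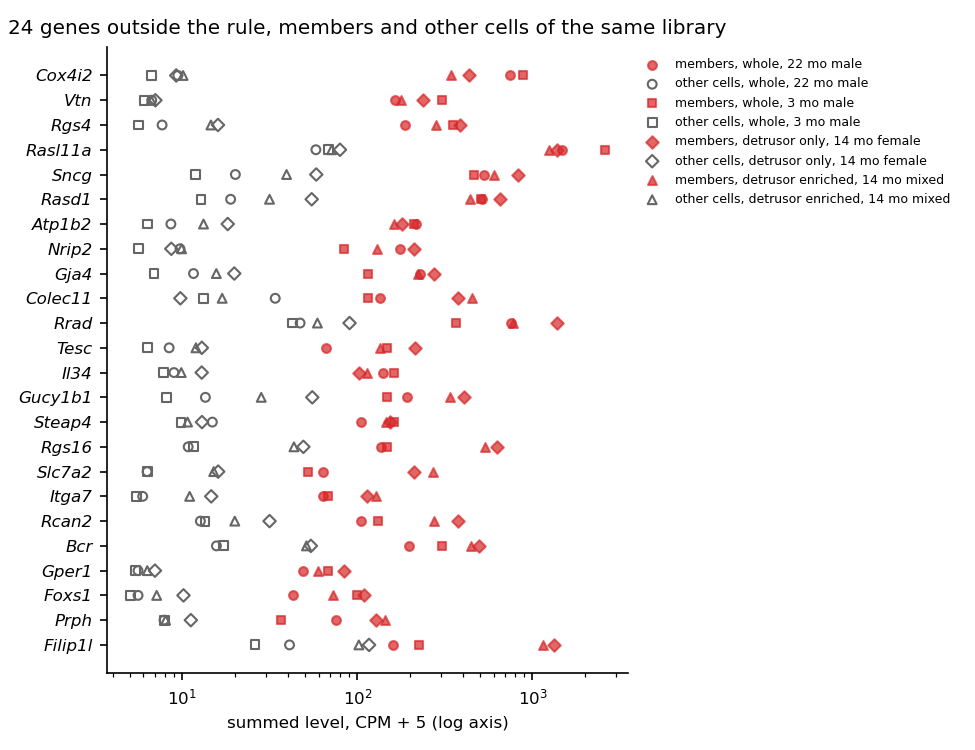
Summed level (CPM with 5 added, log axis) of 24 genes outside the rule in members (red) and in the other cells of the same library (open grey) for the 4 libraries with at least 20 members. Red points lie to the right of the grey points for each gene, with median log2 ratios from 3.30 (Filip1l) to 5.93 (Cox4i2).

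Among 20 known mural markers that the rule did not use, 18 were higher in members in all 4 libraries, with a median log2 ratio of 3.01 beside 0 over all genes; in core members the median was 3.49. Pdgfrb, the PDGF receptor of mural cells, stood at 249, 205, 515 and 505 CPM in members of the 22-month, 3-month, detrusor-only and detrusor-enriched libraries and at 22.8 to 70.3 CPM in the other cells. Cspg4, which encodes the NG2 proteoglycan, stood at 52.7, 31.5, 219 and 247 CPM. The exceptions were Tbx18 (0, 0, 10.3 and 3.83 CPM) and P2ry14 (11.7, 0, 19.5 and 15.3 CPM), both near the level of the other cells. Among 19 genes of PDGF, Notch and angiopoietin signalling, 7 were higher in all 4 libraries, including Pdgfrb, the ligand Pdgfa, the Notch target Heyl, and Angpt2, an antagonist of the TIE2 receptor, at 76.1, 15.7, 86.3 and 120 CPM. Pdgfb, the endothelial ligand, was at 5.86 to 21.1 CPM. Tek and Tgfb1 were lower in members in all 4, Tek with no UMI at 3 months. In core members 6 genes of this signalling list were higher in all 4 and 3 were lower: Pdgfra, Tek and Tgfb1. Over all genes 15.4% were lower in all 4 in members and 17.9% in core members. The counts of lower genes are near these shares, so nothing is read from them.

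Of 20 receptors of vasoactive ligands, 7 were higher in members in all 4 libraries: Ednra, Agtr1a, Adra2a, Npy1r, Adora2a, Ramp1 and S1pr3. No Oxtr UMI was counted in the members of any of the 4, and other cells had 0.275 to 2.19 CPM, so no difference is read from it. In core members 6 of these receptors were higher in all 4, without Ramp1. Ednra, the endothelin receptor of vascular muscle, stood at 58.6, 142, 183 and 172 CPM in members, against 5.37 to 15.8 CPM in other cells. Agtr1a, which binds angiotensin II, stood at 73.2, 110, 125 and 46.0 CPM. Ednrb, the other endothelin receptor, was 14.6 and 0 CPM in the male libraries and 190 and 217 CPM in the detrusor libraries. Of 15 transcription factors of mural cells, 10 were higher in all 4 libraries. Ebf1 was highest in the detrusor libraries, at 963 and 1055 CPM, with 161 and 189 CPM in the male ones. In core members it was 339, 351, 967 and 1060 CPM, from the 22-month to the detrusor-enriched library. Fibroblast-rule cells were split in the same way, at 226 and 95.01 CPM against 28.3 and 37.2 CPM. Among 14 cytokines and chemokines, Ccl11, Cxcl1 and Il34 were higher in all 4, and Il6 as well in core members. Ccl2, Cxcl2 and Il33 were lower in all 4, as was Ccl7, which had no UMI at 3 months. Of 29 dissociation-response genes, 14 were higher in all 4 libraries and 5 were lower: Ier3, Dnajb1, Klf6, Nfkbia and Jdp2. Jdp2 had no UMI in either male library, where no difference is read from it. Over all genes 5.31% were higher in all 4 and 15.4% lower, so the count of lower genes is near that share. Fos stood at 7228, 7903, 8175 and 5775 CPM in members and at 3517 to 6199 CPM in other cells. Their summed level was 37886 to 57233 CPM in members and 23953 to 48171 CPM in other cells, and the part of dissociation in any cell level here was not tested.

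Contractile genes varied widely among the members. Of 15 genes of the smooth muscle apparatus, 11 were higher in members than in other cells in all 4 libraries. Acta2, smooth muscle actin, stood at 4091, 1370, 6762 and 7130 CPM in members of the 22-month, 3-month, detrusor-only and detrusor-enriched libraries. Smooth-muscle-rule cells (at least 1% of UMIs from Actg2 and Des) carried 19919 to 25330 CPM of Acta2 in the 3 of these 4 libraries where such cells were found. In core members Acta2 was 6425, 2283, 6779 and 7138 CPM. Des, limited by the rule, was at 110 to 1094 CPM.

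Within core members the summed share of Acta2, Tagln, Myh11 and Myl9 ran from 0 to 7.03% of UMIs at 22 months, from 0.0182% to 5.72% in the detrusor-only library and from 0 to 5.21% in the detrusor-enriched one. Core members were divided into 3 equal bins of this share in each library with at least 60 of them. The bins are ranges of one measure, not cell types: 12, 83 and 41 cells lay within 20% of a boundary. Some genes that the share did not use, named next, followed the same order of bins in the detrusor-only and detrusor-enriched libraries. Kcnj8, Abcc9 and Rgs5 are rule genes, and every cell had to reach the rule's minimum over them, so their levels are given as a description only. Kcnj8 was 1279, 501 and 82.0 CPM from the low to the high bin of the detrusor-only library and 1016, 457 and 88.5 CPM in the detrusor-enriched one. Abcc9 was 702, 345 and 88.2 CPM and 759, 365 and 90.6 CPM. Ednrb was 424, 203 and 28.6 CPM and 635, 217 and 19.4 CPM. Rgs5 was 3061, 2878 and 1570 CPM in the detrusor-only library and 4092, 3256 and 2747 CPM in the detrusor-enriched one. In the opposite direction, Pln, a regulator of the sarcoplasmic calcium pump, was 3.73, 130 and 694 CPM in the detrusor-only library and 17.8, 57.9 and 542 CPM in the detrusor-enriched one. Lmod1, an actin nucleator of smooth muscle, was 228, 572 and 1031 CPM and 146, 376 and 906 CPM. Not all mural genes fell from the low to the high bin. Notch3, also a rule gene, was 586, 707 and 540 CPM and 741, 807 and 656 CPM. Mcam was 67.2, 81.2 and 133 CPM and 173, 185 and 399 CPM. The 20 mural markers outside the rule summed to 6742, 5938 and 4999 CPM and to 5925, 5727 and 5199 CPM.

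In the 22-month male library the bins held 29, 28 and 28 core members. Kcnj8 was 1456, 711 and 391 CPM there. Abcc9 rested on 5, 5 and 2 UMIs and Ednrb on 2, 3 and 0 UMIs (44.1, 46.4 and 0 CPM), so no order is read from them. Art3, a membrane ADP-ribosyltransferase family gene, was 463, 309 and 46.0 CPM there and 177, 110 and 16.2 CPM in the detrusor-only library. Fibroblast-list genes summed to 27979, 29070 and 5637 CPM across the bins at 22 months and to 9040, 4257 and 2073 CPM in the detrusor-only library, so fibroblast transcripts moved with the bins and their part was not tested. Depth moved too, with median UMIs of 5252, 6660 and 8322 from low to high in the detrusor-only library, 3039, 7635 and 10567 in the detrusor-enriched one and 1049, 1709 and 1446 at 22 months, and its part was not tested. No such reading was made for the 3-month library, which had 24 core members.

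**Figure D4:**
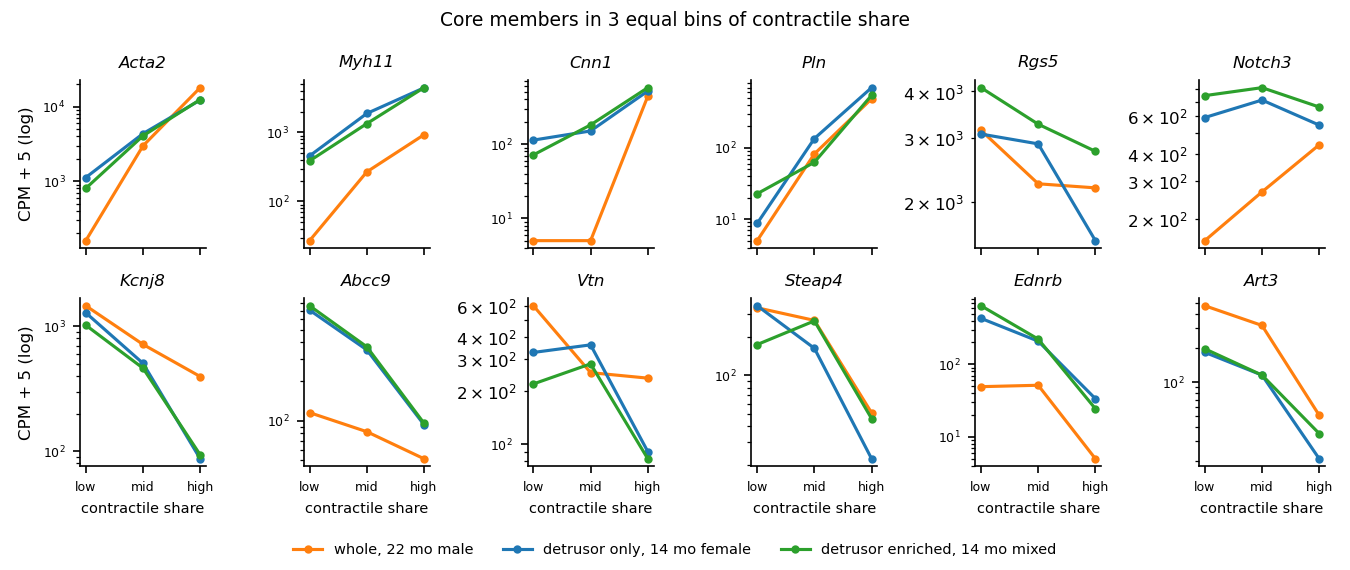
Level (CPM with 5 added, log axes) of 12 genes in core members in 3 equal bins of the contractile share (x axis, low to high), 1 line per library. Acta2 and Myh11 define the bins; Kcnj8 and Abcc9, which are rule genes, are lower from low to high in both detrusor libraries.

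The contractile genes are classical targets of serum response factor, which binds the CArG box. In the 250 bases before each gene's start in RefSeq promoter windows (GRCm38.p6), 378 of 27025 promoters, or 1.40%, held an exact CArG box. The pattern is its own reverse complement, so a match counts for both strands. The 50 bases after the start were not searched. Of 13 contractile genes with a window, only Myl9 did, and of 4 rule genes and 13 outside markers none did. Tagln and Myh11, which are genes of the contractile share, had no window and were not searched. The 2 sequences below show the Myl9 stretch with its box in capitals, at chr2:156775258-156775357 on the plus strand, and the 100 bases directly upstream of Acta2, another gene of the share, at chr19:34255374-34255473 on the minus strand, where no exact box was found.
Myl9: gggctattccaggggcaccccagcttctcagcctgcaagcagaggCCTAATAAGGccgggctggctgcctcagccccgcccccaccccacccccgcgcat
Acta2: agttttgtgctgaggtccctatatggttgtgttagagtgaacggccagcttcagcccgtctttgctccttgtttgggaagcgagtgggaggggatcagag
A match is a description of these letters in this window and not a site. The search took exact matches only. The Acta2 stretch holds ccctatatgg and ccttgtttgg, each a single base away from the pattern, which were not counted.

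Members of the detrusor preparations were compared with those of the male whole bladders, 2 libraries against 2. The detrusor-enriched library is labelled as whole bladder enriched for detrusor, and apart from it only the male whole-bladder libraries had at least 20 members. The groups also differ in sex, age, table and depth, which cannot be told apart from preparation. Before any gene is read, the tables themselves stand apart. In cells outside the members, 58 genes were at least 16-fold lower in the male tables than in all other cell tables and 5 were lower in the detrusor tables. The 58 genes, among them Gapdh and Actg1, made up 12.6 to 13.4% of counts in the mixed whole-bladder tables, 7.84 and 8.66% in the detrusor tables, and 0.0564 and 0.0561% in the male tables. None of the 63 is a rule or list gene.

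Of 8134 genes, 2510 (30.9%) passed edgeR's quasi-likelihood test at an adjusted p under 0.05, 1625 higher in the detrusor members and 885 lower. Levels of members given with this fit are CPM scaled by its size factors (TMM), so they differ from the unscaled CPM given above. Levels in fibroblast-rule cells stay unscaled. Without the detrusor-only library 961 genes passed, without the detrusor-enriched one 1084, and with core members 1331. Of the 16 genes with the largest changes by the naming rule, 12 were among the 63 table-dependent genes: Actg1 and 7 ribosomal protein genes were at 0 CPM in the members of both male libraries, and Atp5o, Tonsl, Hgs and Fdx1l were at or near 0 in the detrusor ones. Actg1, for one, stood at 2037 and 1532 CPM in the detrusor members. Among non-member cells of the male tables Actg1 was as scarce, so no difference between the preparations is read from these genes. Sfrp2, a secreted Wnt modulator expressed by fibroblasts, was 339 and 345 CPM in the male members and 1.28 and 9.95 CPM in the detrusor members, and the forkhead factor Foxf2 109 and 102 against 0.642 and 3.32 CPM. In the contrast with fibroblast-rule cells described next, Sfrp2 and Foxf2 passed over all members, at -3.89 and -3.16 on the log2 scale, but not over core members, at -1.45 and -2.12. The other 2 were Asz1 and Lrrc24, lower in the detrusor members. Of 10 fibroblast genes, 3 passed, near the share over all genes, all lower in the detrusor members: Dcn, Col1a2 and Pdgfra. Dcn stood at 19594 and 12083 CPM against 3412 and 1764 CPM.

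Of 15 contractile genes, 13 passed the test, all higher in the detrusor members, with a median log2 difference over the list of 2.32 beside 0.15 over all genes. In unscaled CPM the list summed to 34924 and 35667 in the detrusor-only and detrusor-enriched members and to 15852 and 7021 in the 22-month and 3-month males. In the 7, 4 and 11 members of the 12-month and 24-month whole-bladder libraries, which the fit left out, it summed to 46978, 19712 and 31129. The difference therefore holds against the male libraries and is not shown for whole bladder in general. Myh11, the smooth muscle myosin heavy chain, stood at 212 and 63.9 CPM in the 22-month and 3-month males and at 3154 and 2908 CPM in the detrusor-only and detrusor-enriched libraries (log2 difference 4.30, SE 0.54, adjusted p = 7.22e-05 by edgeR). The groups did not overlap for this gene. With core members, 11 of 15 passed, where 18% of 7402 genes did. A contrast chosen after seeing these tables set the change in core members against that in fibroblast-rule cells of the same libraries, so that a constant table effect on a gene cancels. It called 131 of 12421 genes (1.05%), and 9 of the 15 contractile genes were among them, all higher. Tagln, an actin-binding protein of smooth muscle, differed by 2.15 (SE 0.42, adjusted p = 0.000179), while Myh11 did not pass, at 1.65 (SE 0.49, adjusted p = 0.0625). In fibroblast-rule cells Acta2 was 1259, 305, 279 and 685 CPM in the 22-month, 3-month, detrusor-only and detrusor-enriched libraries, so differences among fibroblasts also enter this contrast. Of 8 visceral muscle markers, Myh11, Cnn1 and Smtn are also on the contractile list and Actg2 and Des were limited by the rule. The other 3 are given in unscaled CPM. Synm, an intermediate filament gene, was 23.4 and 15.7 CPM in the male members and 163 and 164 CPM in the detrusor members. Pcp4 was 5.86 and 0 against 61.7 and 28.7 CPM, and Actc1 was 5.86 and 0 against 21.6 and 3.83 CPM. In the fit of all members 6 of 7 tested markers of this list passed, all higher in the detrusor members, beside 30.9% of all genes. Synm and Pcp4 passed at 3.18 and 3.50 on the log2 scale (adjusted p = 0.000239 and 0.0110 by edgeR), and Actc1 was not tested. With core members Synm differed by 3.01 and passed, and Pcp4 by 2.50 and did not (adjusted p = 0.0829 by edgeR). The part of visceral muscle RNA in the contractile difference was not tested.

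Genes of ion channels and relaxation were higher in the detrusor members for 10 of 13 tested, where 30.9% of all genes were called in either direction. In the contrast with fibroblast-rule cells over core members 0 of 14 were called. There 1.05% of all genes were called, so a count of 0 says little. Over all members that contrast called 3.96% of 12536 genes, among them Itpr1, an intracellular calcium release channel, and Pde3a, a phosphodiesterase, higher by 1.88 and 1.78. Over core members they differed by 2.49 and 1.16 and did not pass (adjusted p = 0.124 and 0.532 by edgeR). Gucy1a1, partner of Gucy1b1 in the nitric oxide receptor, was 63.6 and 51.1 CPM in the male members and 1127 and 823 CPM in the detrusor members. Fibroblast-rule cells showed the same split for it, at 8.97 and 5.78 against 382 and 114 CPM. Of the 20 outside markers, 9 of 19 tested (47.4%) were higher in the detrusor members, beside 30.9% of all genes called in either direction. With core members 4 of 19 were called higher (Aoc3, Cspg4, Ebf1 and Gucy1a1) and 2 lower (Art3 and Cox4i2). In that fit 18% of 7402 genes were called, and Pdgfrb did not pass, at 0.69 (adjusted p = 0.234 by edgeR). The added contrasts called other sets of these markers. Relative to fibroblast-rule cells, Tinagl1, Aoc3 and Vtn were called higher over all members (log2 differences 1.78, 1.99 and 1.98) and none was called lower. Over core members none was called higher, and Art3, Foxs1 and Heyl were called lower. Each of these genes kept its direction in both contrasts with fibroblast-rule cells. Tinagl1, Aoc3 and Vtn differed by 1.05, 1.18 and 1.19 over core members, and Art3, Foxs1 and Heyl by -1.35, -2.38 and -1.87 over all members. Between the members themselves Tinagl1, Aoc3 and Vtn differed by 1.15, 2.42 and 0.34, and Art3, Foxs1 and Heyl by -0.49, 1.09 and 0.81. Between core members the differences were 0.22, 1.46, -0.63, -1.44, 0.09 and -0.09 in the same order. Foxs1 and Heyl were therefore not lower between all members, and Vtn was not higher between core members. Differences among fibroblast-rule cells also enter these calls.

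Age could not be tested at 20 members per library, since only 1 whole-bladder library of each age group qualified, and neither could nuclei with 6 members. Fits with no minimum, added after the counts were seen, called 0 of 1389 genes (0%) for 22 and 24 months against 3 and 12 months in edgeR, where 29 had an unadjusted p under 0.05. They called 0 of 2068 (0%) for nuclei against whole-bladder cells, where 466 had an unadjusted p under 0.05. For the change in members beyond that in fibroblast-rule cells, 17 of 9570 genes (0.178%) were called between nuclei and cells, all lower in nuclei. The nuclei are a single library, so the spread behind this test comes from the other libraries and is assumed to hold for nuclei. The called genes included Acta2, Myh11 and Tagln. Rgs5 and Des were also among the 17, but the rule used both, so nothing is read from them. The 6 nuclei members had 3.45 times the urothelial level of the other nuclei and 11 of 20 outside mural markers at 0, as given above, and the part of this in the 17 genes was not tested. Between ages 7 of 8508 (0.0823%) were called, of which 4 were haemoglobin genes and the others Il6, Ccl11 and Ccl5.

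In bulk RNA, mural transcripts were measured without selecting cells, in 3 intact and 3 dissociated libraries of 12-month females. Here fewer cells of a type and less RNA per cell cannot be told apart. Dissociated and intact bladder differed for 9798 of 16538 genes (59.2%), so a single call says little. Of the 6 rule genes 3 were lower after dissociation, 2 higher and 1 did not pass. Rgs5 stood at 366, 383 and 345 CPM in intact bladder and at 161, 161 and 206 CPM in dissociated bladder. The groups did not overlap, and Rgs5 fell by 1.05 on the log2 scale (SE 0.12, adjusted p = 0.000198 by edgeR).

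Kcnj8 stood at 22.1, 24.4 and 22.7 CPM in intact and at 9.10, 9.68 and 9.0 CPM in dissociated bladder, and fell by 1.32 (SE 0.09, adjusted p = 2.45e-05 by edgeR). Abcc9 fell by 0.63 (SE 0.13, adjusted p = 0.00423). Both channel subunits were therefore lower after dissociation in each library. Smooth-muscle-rule cells of the detrusor-only and detrusor-enriched libraries also carried them. Kcnj8 was 36.9 and 46.9 CPM there against 538 and 410 CPM in members, and Abcc9 67.8 and 154 CPM against 335 and 325 CPM. The part of muscle cells in the bulk fall was not tested. Ndufa4l2 rose by 1.01 (SE 0.15), from 8.71, 7.40 and 6.49 CPM to 17.5, 14.1 and 13.8 CPM, and Notch3 rose by 0.40 (SE 0.10). Higd1b was 1.47, 2.12 and 1.40 CPM in intact and 0.928, 1.36 and 1.57 CPM in dissociated bladder and did not pass (adjusted p = 0.269).

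Of the 24 genes named in members, 15 rose in dissociated bladder, 4 fell and 5 did not pass. The list's median log2 difference was 0.66, beside -0.03 over all genes. Of the 20 outside markers 7 rose, 7 fell and 6 did not pass. Steap4, a metalloreductase, rose from 12.9, 11.8 and 19.8 CPM to 41.7, 40.1 and 27.6 CPM (log2 1.31, SE 0.23), and Pdgfrb by 0.77 (SE 0.13). Cspg4 fell by 1.73 (SE 0.13) and Art3, at 307, 320 and 294 CPM in intact bladder, fell by 4.01 (SE 0.15). Of 15 contractile genes 13 fell, as did all 8 visceral muscle markers, while 7 of 8 blood endothelial and 10 of 10 fibroblast markers rose. The part of this shift in tissue makeup in the mural genes was not tested. The largest changes by the naming rule were rises of Il6, Fosb, Cxcl1, Has1, Cxcl2, Atf3, Tnfaip6 and Fos and falls of Kcnf1, Actc1, Npy6r, Npy4r, Acta1, Rims1, Rbfox3 and P2rx1. Il6, an inflammatory cytokine, stood at 0.0420, 0.0280 and 0.0740 CPM in intact and at 189, 179 and 175 CPM in dissociated bladder. On the UMI scale of the cell tables, which is not the read scale of bulk, Il6 in members of the detrusor-only and detrusor-enriched libraries was 185 and 342 CPM, and 41.0 and 15.7 CPM in the 22-month and 3-month males.

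**Figure D5:**
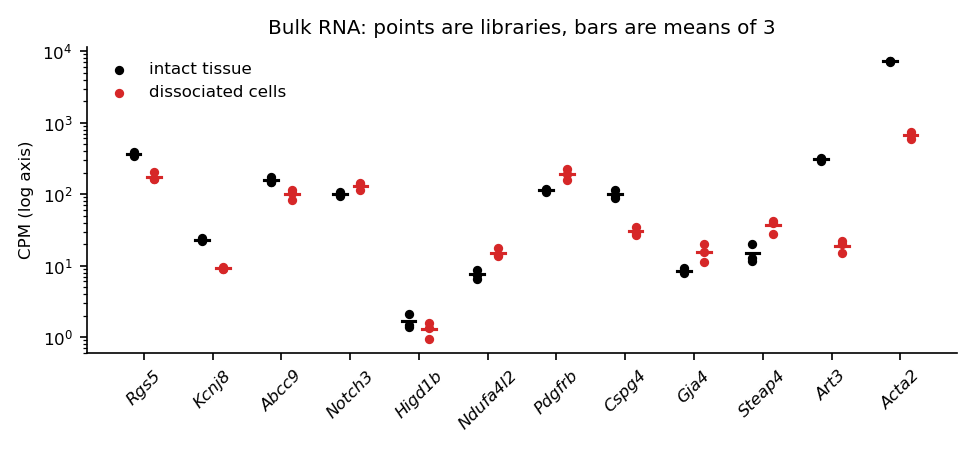
Level (CPM, log axis) of the 6 rule genes, 5 outside markers and Acta2 in 3 intact (black) and 3 dissociated (red) bulk libraries, with bars at the means. Rgs5, Kcnj8 and Abcc9 are lower and Ndufa4l2, Pdgfrb and Steap4 higher in the dissociated libraries.

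In the spatial sections a spot holds several cells, and only 1, 3, 0 and 1 spots of 1317, 1038, 937 and 1123 met the rule in the 2 sections of 22 months and the 2 of 14 months. The 6 rule genes summed to 412 and 451 CPM at 22 months and to 371 and 345 CPM at 14 months. Rgs5 stood at 263 and 301 CPM at 22 months and at 196 and 148 CPM at 14 months, and no test of age was made there. Across spots, the Spearman correlation of the rule genes' share with that of blood endothelial genes was 0.25 and 0.16 at 22 months and 0.17 and 0.10 at 14 months. With visceral muscle genes it was -0.45 and -0.44 and then -0.28 and -0.05. With urothelial genes it was 0.42 and 0.51 at 22 months and 0.19 and 0.06 at 14 months, higher than with endothelial genes in 3 of the 4 sections. Spots share libraries and depth, and the same share correlated with the spot's total UMIs at 0.41, 0.39, 0.21 and 0.12, so these values are descriptions.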

How the data were processed

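Single-cell, nuclei, spatial and bulk tables were used. The deposited droplet and spatial files hold raw UMI counts per gene and barcode, and the bulk file read counts per gene, per the file headers and their whole-number values. The submitters' processing notes name Cell Ranger, Space Ranger, bcl2fastq, Subread, featureCounts and mm10, with no role. The gene lists differ between tables (27775, 27998 and 31053 genes), and the male tables hold 0 mitochondrial counts; mitochondrial genes were left out of CPM and fits. Total UMIs per droplet library ran from 5197910 to 55374101 and bulk reads from 23083752 to 68760791. Members and lists were chosen with earlier results of these data known.

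Members' UMIs were summed per library over 26346 shared genes. Libraries with at least 20 members were fitted with edgeR 4.0.16 (R 4.3.3): filterByExpr, TMM, robust quasi-likelihood test, Benjamini-Hochberg adjustment. Levels given with the fit of detrusor members and with the bulk fit are CPM scaled by TMM size factors. Libraries carry no replicate animals, and bulk libraries are replicates by label only, so p-values measure the spread between libraries. The labels give 3 females for each bulk library without saying whether they were pooled in each or shared among the libraries. DESeq2 1.42.0, other filters, scalings, doublet removal with scanpy 1.11.5 and omitted libraries were alternatives. The fits were tested on simulated data. Genes were named by rule: the 24 with the largest median ratio of members to other cells, a median of at least 50 CPM in members, and a level above the other cells in every library of at least 20 members, and up to 8 in each direction per fit that passed at 0.05 after adjustment, averaged 10 CPM or more and had groups that did not overlap. Fits of age and of nuclei could not be made as designed and were made with no minimum instead. Same-numbered bulk libraries were not paired by the labels.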

Additional observations from a re-analysis of the deposited data

Results flagged for a closer look

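The difference between members and fibroblast-rule cells was larger in the detrusor libraries than in the male whole-bladder libraries for 9 contractile genes, by the interaction test in edgeR over core members. The log2 differences were 3.29 for Myl9, 3.02 for Flna, 2.45 for Cald1, 2.25 for Mylk, 2.20 for Tpm2, 2.15 for Tagln, 1.93 for Lmod1, 1.93 for Acta2 and 1.84 for Tpm1. The median over all genes in this contrast was 0.60. Between the core members themselves Myl9 and Acta2 did not pass, at 0.76 and 1.03 (adjusted p = 0.364 and 0.152 by edgeR). Over all members Myl9 differed by 1.22 (adjusted p = 0.104 by edgeR). In fibroblast-rule cells Myl9 stood at 876, 680, 104 and 295 CPM in the 22-month, 3-month, detrusor-only and detrusor-enriched libraries. The larger share of its 3.29 over core members therefore comes from the fibroblast-rule cells, which were lower in the detrusor libraries.

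The same test called 17 genes between nuclei and cells, but with 1 nuclei library, whose spread is assumed to be that of the other libraries, and 6 nuclei members high in urothelial genes (15281 CPM against 4423 CPM in other nuclei). It called 7 genes between older and younger whole bladders, with 4 haemoglobin genes among the 7 and 1 member of 22 months carrying 2081 haemoglobin UMIs.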

How the results depend on the processing

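The total of 669 members stayed within 1.5 times under every rule alternative run except thinning each cell to 1000 UMIs, which left 287. The male libraries moved more than this total. With at least 8 mural UMIs, 53 of 151 members remained at 22 months and 19 of 41 at 3 months. In the detrusor-only and detrusor-enriched libraries 281 of 294 and 131 of 155 remained. The 2510 genes called between detrusor and whole-bladder members fell to 1236 with DESeq2, to 1331 with core members, and to 23 with no minimum number of members, also 23 for core members of those libraries. Relative to fibroblast-rule cells 497 were called, and 131 over core members. Leaving out 1 library gave 961 to 3531. Size factors of the RLE kind moved the median log2 difference of all genes from 0.15 to 0.27. Leaving out the genes that differ 16-fold between tables gave 2466. Relative to fibroblast-rule cells, Rps12 reversed to -0.72 and, over core members, to -0.75, Atp5o to 0.48 and 0.58, and Tonsl to 0.85 and 1.23, which are 3 of the table-dependent genes. These contrasts and the core members were chosen after seeing the data.

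The 9798 bulk calls were 10118 with a replicate block and 8128 to 9782 without 1 library. Deviations of same-numbered bulk libraries correlated at 0.19, 0.34 and -0.07, so the numbers were not taken as pairs. Depth limits the male members, whose summed UMIs were 341468 and 63520 against 1945723 in the detrusor-only library, and genes at 0 there are not shown to be absent. The alternatives planned for the fits of age, nuclei and the 2 contrasts with fibroblast-rule cells were not run, since those fits could not be made with 20 members per library.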
